A study of Mus musculus with 8 samples.

Results

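The host effect that both grafted tumors shared was described from 8 RNAseq libraries, as the set of genes whose change between *Ccrl2* KO and WT hosts went the same way in Lewis lung carcinoma (LLC) and in B16 melanoma tumors. A gene was a member when, in each tumor, both KO pools lay below both WT pools, or both lay above them. Of 14706 genes tested out of 47729 in the table, 2809 met this rule. The levels that chose these genes are also the levels that describe them, so the counts of members are a description and carry no test.

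CCRL2 is an atypical receptor that binds chemerin and presents it at the cell surface without signaling itself, and it is found on endothelial cells and on several leukocyte types. Growing tumors depend on new vessels, which are lined by endothelial cells and wrapped by mural cells, the pericytes and smooth muscle cells. Where blood supply is short, oxygen falls, the transcription factor HIF-1 is stabilized, and genes of glucose uptake and glycolysis are transcribed at higher rates.

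The 4 groups were LLC tumors in *Ccrl2* KO mice, LLC tumors in WT mice, B16 tumors in *Ccrl2* KO mice and B16 tumors in WT mice, all in syngeneic C57BL/6 hosts (C57BL/6J in the study's methods). The *Ccrl2* deletion was in the whole body of the host, whereas the grafted B16-F0 and LLC lines, which derive from C57BL mice, kept the gene, so tumor cells and host cells both gave RNA to every library. The grafts were placed under the skin of the back and collected on day 5 according to the labels, although the study's text also gives an earlier day for the B16 pools. There were 2 libraries a group, each a pool of several tumors, so p-values measure the spread between 2 pools a group. In bulk tumors, fewer cells of a type and less RNA per cell cannot be told apart.

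Levels are given as reads on a gene scaled to a library of 1 M reads (RPM), with a deposited step of 0.05 RPM. Several libraries stood apart. LLC KO replicate 1 had 216 RPM summed over the 37 blood endothelial genes, against 392 to 1088 RPM in the 7 other libraries. B16 WT replicate 1 carried skeletal muscle RNA (*Tnnt3*, a fast muscle troponin, at 109 RPM against at most 1.75 RPM elsewhere). The LLC KO pools held 65.85 and 71.5 RPM of 4 Y-linked genes, which were at 0 in the other 6 libraries, so that in LLC the genotype and the source of Y-linked RNA cannot be told apart. The LLC WT pools held *Lars2* at 1194 and 1362 RPM, against 70.8 to 163 RPM in the other 6 libraries. In LLC this difference also goes with the host genotype. The tumor lines were as labelled, with the melanocyte gene *Dct* at 4098 to 5016 RPM in B16 and at most 0.05 RPM in LLC, and the keratin gene *Krt8* at 152 to 227 RPM in LLC and at most 0.05 RPM in B16.

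More genes were lower than higher in KO hosts. Members numbered 2072 lower (14.1% of tested genes) and 737 higher (5.01%), while 2020 genes had pools that did not overlap in either tumor but went in opposite directions. Of all tested genes, 42.0% were lower and 27.6% higher without overlap of the pools in LLC, and 31.1% and 16.1% in B16. The surplus of lower genes depended on how the libraries were scaled. With factors from the trimmed mean of M values 1310 genes were lower and 1411 higher, and with median of ratios factors 1302 were lower and 1398 higher. These factors moved the median host change of all genes to 0.00, against -0.07 on the log2 scale with the deposited totals. Both sets of factors raised every KO library against every WT library. All 737 higher members therefore had to keep their order, which is no check on them. Of the lower members 63.2% and 62.8% kept it, as did 68 of the 69 genes that were at least 2-fold lower in both tumors.

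**Figure D1:**
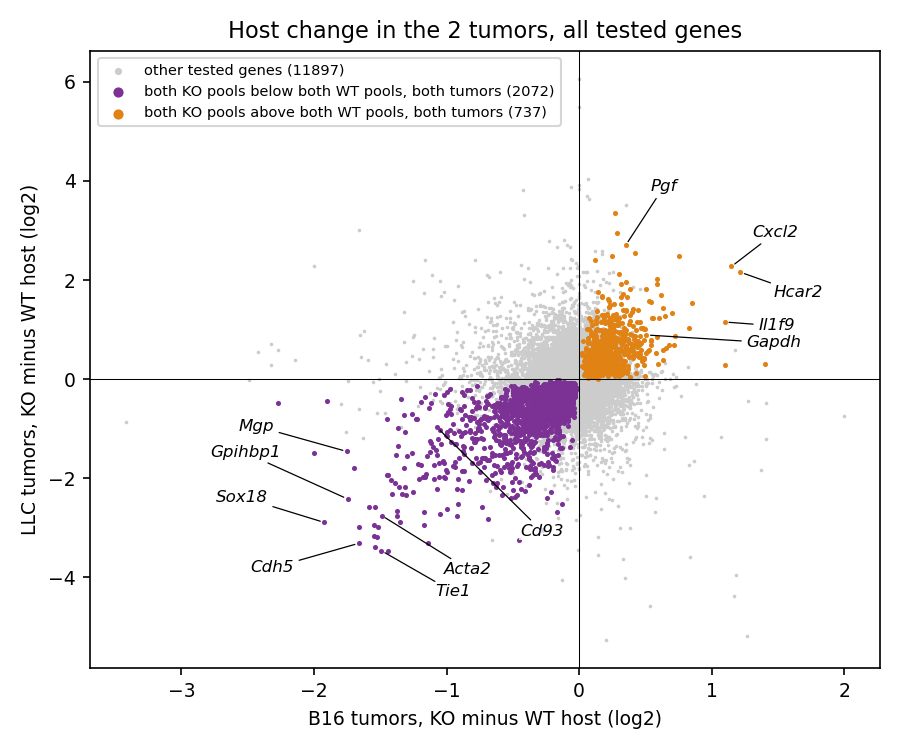
Change between KO and WT hosts (log2) in LLC tumors (vertical axis) and B16 tumors (horizontal axis) for each of the 14706 tested genes. Purple points are the 2072 genes with both KO pools below both WT pools in both tumors, orange points the 737 genes with the reverse order, and the longer vertical spread of both clouds shows larger changes in LLC.

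The changes were larger in LLC than in B16. The median of the lower members was -0.46 in LLC and -0.23 in B16 (log2 KO minus WT), and 85.2% of them changed more in LLC. The higher members had medians of 0.45 in LLC and 0.20 in B16, and 84.3% of them changed more in LLC. The medians of all tested genes were -0.09 in LLC and -0.05 in B16. Only 3 members were at least 2-fold higher in both tumors, against 69 that were at least 2-fold lower.

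The test with the tumor as a covariate (limma on log2 values with 0.5 RPM added, Benjamini-Hochberg adjustment over all tested genes) called 0 genes at an adjusted p under 0.05 (0.00% in each direction). It gave 3777 genes an unadjusted p under 0.05, 1089 higher (7.41%) and 2688 lower (18.3%), and its smallest adjusted p was 0.0503, for *Cd93*. This model counts any inequality between the 2 tumors as error. A model with 4 group means, in which only the spread between pools is error, called 3386 genes for the average over both tumors, 1194 higher (8.12%) and 2192 lower (14.9%). This split also turned with scaling, to 1805 higher and 1175 lower with the trimmed mean of M values and 1750 higher and 1212 lower with the median of ratios factors. Among the members it called 1272 of the 2072 lower and 458 of the 737 higher ones. That count rested on the full set of pools, since it was 811 to 1894 without any 1 of the LLC KO and B16 libraries, lowest without B16 WT replicate 2, 3997 and 4028 without an LLC WT library, and 1 without B16 WT replicate 1 and LLC KO replicate 1 together.

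In the same model the LLC tumors alone gave 5628 called genes and the B16 tumors alone gave 0 (limma, 1442 at an unadjusted p under 0.05). No statement on B16 by itself therefore rests on a called gene. Adjusted p-values of both models are given with the genes, and since they come from the pools that chose the members they add no independent evidence.

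The blood endothelial genes had the largest share of lower members of any list. Of 36 tested genes that mark vessel endothelium, 31 were lower members (86.1%, against 14.1% of all genes) and 0 were higher members, with a median host change of -1.67 (log2), -2.29 in LLC and -1.17 in B16. The size of this median depended on the pseudocount, at -2.23 with 0.05 RPM and -1.10 with 2 RPM added in place of 0.5 RPM. Without overlap, 33 genes were lower and 1, not a member, was higher in B16 (31.1% and 16.1% of all genes). In LLC 34 were lower and 0 higher (42.0% and 27.6% of all genes). The summed list had 794 and 770 RPM in B16 KO pools against 1088 and 967 RPM in B16 WT pools. In LLC the sums were 216 and 392 RPM in KO pools against 940 and 764 RPM in WT pools. The model of 4 group means called 32 of the 36 lower. The 31 lower members held their order under both other scalings.

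*Cdh5*, *Pecam1*, *Esam* and *Plvap*, genes of endothelial junctions and surfaces, were among them. *Cdh5* (ENSMUSG00000031871), which encodes VE-cadherin of endothelial junctions, had 1 and 11.6 RPM in LLC KO pools against 51.4 and 34.1 RPM in LLC WT pools, and 7.15 and 5.65 RPM in B16 KO pools against 27.6 and 16.3 RPM in B16 WT pools. Its pools did not overlap in either tumor, and the log2 changes were -3.31 in LLC and -1.66 in B16 (adjusted p = 0.116 with tumor as covariate and 0.0236 for the average). *Pecam1*, the CD31 adhesion molecule, had 2.2 and 19.1 RPM in LLC KO pools against 71.2 and 46.2 RPM in LLC WT pools, and 14.8 and 12.2 RPM in B16 KO pools against 45.8 and 33.9 RPM in B16 WT pools, and *Esam*, another adhesion molecule of endothelial junctions, changed by -2.99 in LLC and -1.66 in B16. *Plvap*, which forms the diaphragms of fenestrae and caveolae, had 1.1 and 18.1 RPM in LLC KO pools against 58.9 and 40.1 RPM in LLC WT pools, and 18.5 and 12.5 RPM in B16 KO pools against 54.4 and 37.6 RPM in B16 WT pools. For each of these genes LLC KO replicate 1 was the lowest pool, and LLC KO replicate 2 still lay below both LLC WT pools.

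The surface proteins *Tie1*, *Robo4*, *Emcn* and *Adgrf5* were also lower members. *Tie1*, an endothelial receptor tyrosine kinase, had 0.05 and 5.65 RPM in LLC KO pools against 25.6 and 15.3 RPM in LLC WT pools, and 4.75 and 2.75 RPM in B16 KO pools against 12.3 and 10.1 RPM in B16 WT pools. *Robo4*, a guidance receptor of endothelial cells, had 0.05 and 2.15 RPM in LLC KO pools against 16.7 and 8.8 RPM in LLC WT pools, and 3.05 and 1.85 RPM in B16 KO pools against 10 and 6.2 RPM in B16 WT pools, so that its lowest LLC pool was at the smallest value above 0 that the table can hold. *Emcn*, the sialomucin endomucin of veins and capillaries, changed by -2.59 in LLC and -1.54 in B16, and the adhesion receptor gene *Adgrf5* by -3.18 in LLC and -1.52 in B16. The average over both tumors had an adjusted p of 0.0151 for *Robo4*, 0.0214 for *Adgrf5*, 0.0351 for *Tie1* and 0.0494 for *Emcn*.

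The transcription factor genes *Sox18* and *Bcl6b* were lower members, while *Tal1* was not. *Sox18* (ENSMUSG00000046470, GRCm38 chr2:181669836-181671640, minus strand), which acts in vessel and lymphatic development, had 0.1 and 3.9 RPM in LLC KO pools against 15.3 and 8.75 RPM in LLC WT pools, and 3.2 and 1.55 RPM in B16 KO pools against 11.1 and 8.9 RPM in B16 WT pools. Its smaller change, -1.92 in B16, was the largest smaller change among named lower members called for the average (adjusted p = 0.0248, and 0.116 with tumor as covariate). *Bcl6b*, a transcriptional repressor of the endothelium, had 0.7 and 1.8 RPM in LLC KO pools against 7.55 and 5.15 RPM in LLC WT pools, and 2.2 and 1.8 RPM in B16 KO pools against 6.25 and 3.7 RPM in B16 WT pools.

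*Cd93*, *Rasip1* and *S1pr1* differed less between the tumors and had the smallest adjusted p-values of the list. *Cd93* (ENSMUSG00000027435, GRCm38 chr2:148436640-148443563, minus strand), a lectin-like receptor of endothelial and myeloid cells, had 73.8 and 94.8 RPM in LLC KO pools against 169 and 162 RPM in LLC WT pools, and 25.6 and 25.9 RPM in B16 KO pools against 59.5 and 50.1 RPM in B16 WT pools. Its host change was -1.02 (95% confidence interval -1.24 to -0.81), -0.98 in LLC and -1.07 in B16, with an adjusted p of 0.0503 with tumor as covariate and 0.00177 for the average. *Rasip1*, an adaptor needed for vessel lumens, had 4.7 and 4.15 RPM in LLC KO pools against 13.7 and 9 RPM in LLC WT pools, and 4.75 and 3.2 RPM in B16 KO pools against 10.3 and 8.05 RPM in B16 WT pools. *S1pr1*, a sphingosine 1-phosphate receptor that stabilizes junctions, had 15.8 and 19 RPM in LLC KO pools against 32.9 and 28.9 RPM in LLC WT pools, and 4.8 and 5.65 RPM in B16 KO pools against 15.5 and 10.7 RPM in B16 WT pools. The 2 LLC KO pools were less than 1.5-fold apart for each of these 3 genes, so that LLC KO replicate 1 did not stand apart in them.

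**Figure D2:**
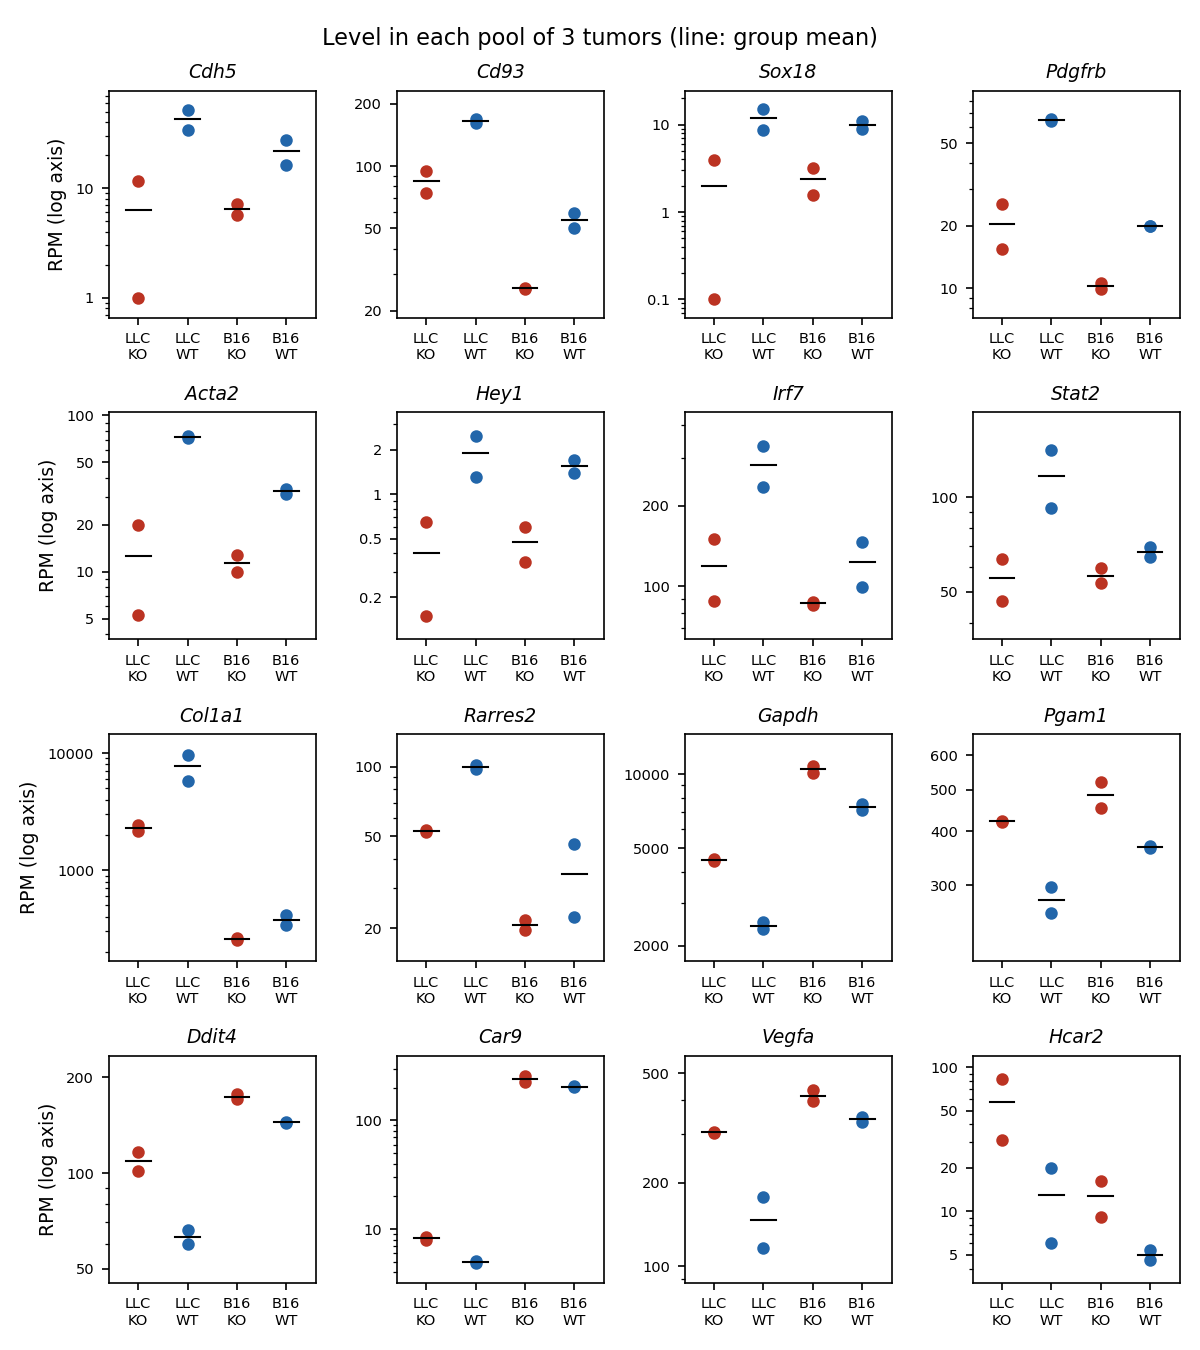
Level of 16 genes in each of the 8 pools (RPM, log axis), KO groups in red and WT groups in blue, with the group mean as a line. In every panel the KO points of a tumor lie on 1 side of its WT points, below for *Cdh5* to *Rarres2* and above for *Gapdh* to *Hcar2*.

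The 5 tested endothelial genes outside the rule were *Ecscr*, *Apold1*, *Tal1*, *Eng* and *Flt1*. *Flt1*, a VEGF receptor that is also a decoy, was 22.6 and 29.5 RPM in LLC KO pools against 25.2 and 16.1 RPM in LLC WT pools, and 6.9 and 6.25 RPM in B16 KO pools against 21.6 and 13.3 RPM in B16 WT pools. It was lower in B16 and overlapped in LLC, and its host effects in the 2 tumors differed (limma, LLC minus B16 = 1.65 on the log2 scale, adjusted p = 0.0327).

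Of 12 mural cell genes tested, 9 were lower members (75%, against 14.1% of all genes) and 0 higher, with a median host change of -1.38, -1.58 in LLC and -1.16 in B16. Without LLC KO replicate 1 the median host change was -0.89. *Acta2* (smooth muscle actin, ENSMUSG00000035783) had 5.25 and 20 RPM in LLC KO pools against 73.5 and 71.9 RPM in LLC WT pools, and 12.8 and 9.95 RPM in B16 KO pools against 31.4 and 33.8 RPM in B16 WT pools, with log2 changes of -2.75 in LLC and -1.49 in B16 (adjusted p = 0.116 with tumor as covariate and 0.0093 for the average). *Pdgfrb*, the receptor that recruits pericytes to vessels, had 15.4 and 25.5 RPM in LLC KO pools against 65.4 and 64.1 RPM in LLC WT pools, and 9.9 and 10.6 RPM in B16 KO pools against 20 and 20 RPM in B16 WT pools. *Abcc9*, a potassium channel subunit of pericytes, had 1.75 and 4.15 RPM in LLC KO pools against 12.9 and 9 RPM in LLC WT pools, and 0.9 and 0.7 RPM in B16 KO pools against 3.7 and 2 RPM in B16 WT pools, and *Notch3*, a receptor of mural cells, changed by -0.51 in LLC and -0.99 in B16. Under the 2 other scalings 7 and 8 of the 9 genes kept their order. *Des*, also a muscle gene, was at 67.4 RPM in B16 WT replicate 1, the library with skeletal muscle RNA, and 7.75 RPM in replicate 2, still above both B16 KO pools (6.15 and 4.75 RPM).

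The Notch pathway, which patterns sprouting vessels, showed the same order in 7 of 9 tested genes, all lower (against 14.1% of all genes). Its median host change was -0.87, -1.25 in LLC and -0.83 in B16, and 6 genes were called lower for the average (against 14.9% of all genes). *Notch4*, a receptor largely of endothelial cells, had 3.75 and 4.95 RPM in LLC KO pools against 16.5 and 10.8 RPM in LLC WT pools, and 3.25 and 2.05 RPM in B16 KO pools against 8.6 and 6.6 RPM in B16 WT pools, with nearly equal log2 changes of -1.52 in LLC and -1.38 in B16 (adjusted p = 0.00568 for the average). The target genes *Hey1* and *Hes1* were also lower. *Hey1* had 0.15 and 0.65 RPM in LLC KO pools against 2.5 and 1.3 RPM in LLC WT pools, and 0.6 and 0.35 RPM in B16 KO pools against 1.7 and 1.4 RPM in B16 WT pools. *Hes1*, which is not restricted to vessels, had 6.7 and 6.6 RPM in LLC KO pools against 15.4 and 17.9 RPM in LLC WT pools, and 8.8 and 8.5 RPM in B16 KO pools against 11.3 and 13.3 RPM in B16 WT pools, and its change was larger in LLC (difference -0.78, adjusted p = 0.0366). The ligand gene *Jag1* changed by -1.05 in LLC and -0.45 in B16.

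Several leading lower genes stood on none of the lists. *Gpihbp1*, which carries lipoprotein lipase across capillary endothelium, had 0 and 2.9 RPM in LLC KO pools against 8.1 and 5.15 RPM in LLC WT pools, and 2.55 and 1 RPM in B16 KO pools against 9.05 and 4.9 RPM in B16 WT pools. *Ctla2a*, a cysteine protease inhibitor, had 6.35 and 13 RPM in LLC KO pools against 41.3 and 25.9 RPM in LLC WT pools, and 9.95 and 5.15 RPM in B16 KO pools against 28.7 and 20.9 RPM in B16 WT pools, and *Mest*, an imprinted gene expressed from the paternal allele, had 1.95 and 4.5 RPM in LLC KO pools against 21.7 and 19.1 RPM in LLC WT pools, and 3.8 and 3.4 RPM in B16 KO pools against 16.4 and 8.45 RPM in B16 WT pools. *Mgp*, an inhibitor of matrix calcification, changed by -1.46 in LLC and -1.75 in B16, and *Grrp1* by -1.94 in LLC and -1.45 in B16. Of the 69 genes at least 2-fold lower in both tumors, 27 were on the endothelial or mural list and 31 on any list. The host effects of the 2 tumors differed for 2236 genes in all, above 0 (LLC minus B16) for 8.15% and below 0 for 7.05% of tested genes. None of the 67 with a gene name was among them (limma, adjusted p under 0.05), which does not show that the effects were equal.

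Collagens and other matrix genes were divided. Of 13 collagens outside basement membranes tested, 6 were lower members (against 14.1% of all genes) and 1, *Col16a1*, was a higher member (against 5.01%). The median host change was -0.51 (-0.31 without LLC WT replicate 2). *Col1a1*, a chain of type I collagen made by fibroblasts, had 2168 and 2415 RPM in LLC KO pools against 5772 and 9699.6 RPM in LLC WT pools, and 263 and 252 RPM in B16 KO pools against 341 and 415 RPM in B16 WT pools, and its change was larger in LLC (difference -1.16, adjusted p = 0.0453). *Col1a2*, the other chain of type I collagen, changed by -1.59 in LLC and -0.48 in B16, and *Col5a2* by -1.53 in LLC and -0.60 in B16. *Col6a3*, a chain of the microfibrillar type VI collagen, had a smaller change in LLC, -0.29 in LLC and -0.55 in B16. Under the 2 other scalings 4 of the 6 collagens were still lower.

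In the basement membrane list, 3 of 12 tested genes were lower members, against 14.1% of all genes, and 2 were under each other scaling. The list median was -0.59 in B16 and -0.06 in LLC. Without overlap, 11 genes were lower and 1 higher in B16, and 4 were lower and 5 higher in LLC. *Nid2*, which links laminin and collagen networks, had 6.45 and 8.85 RPM in LLC KO pools against 22.3 and 18.7 RPM in LLC WT pools, and 5.3 and 6.3 RPM in B16 KO pools against 10.5 and 8.65 RPM in B16 WT pools. *Col15a1*, a collagen of vessel basement membranes, had 8.4 and 21.9 RPM in LLC KO pools against 117 and 77.6 RPM in LLC WT pools, and 22.9 and 21.4 RPM in B16 KO pools against 48 and 37.4 RPM in B16 WT pools. *Lama4*, a laminin chain of vessels and the remaining member, stood at the edge of the rule, with KO pools of 98.5 and 102 RPM and WT pools of 106 and 102 RPM in B16, a margin of 0.0028 on the log2 scale. *Lck*, a T cell kinase, lay just outside it, because 1 KO and 1 WT pool of B16 shared the level of 4.55 RPM. Of the fibroblast list 4 of 14 genes were lower members (28.6%), 3 of which are collagens, and the fourth was *Fap*, the fibroblast activation protein, at -0.89 in LLC and -0.58 in B16.

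**Figure D3:**
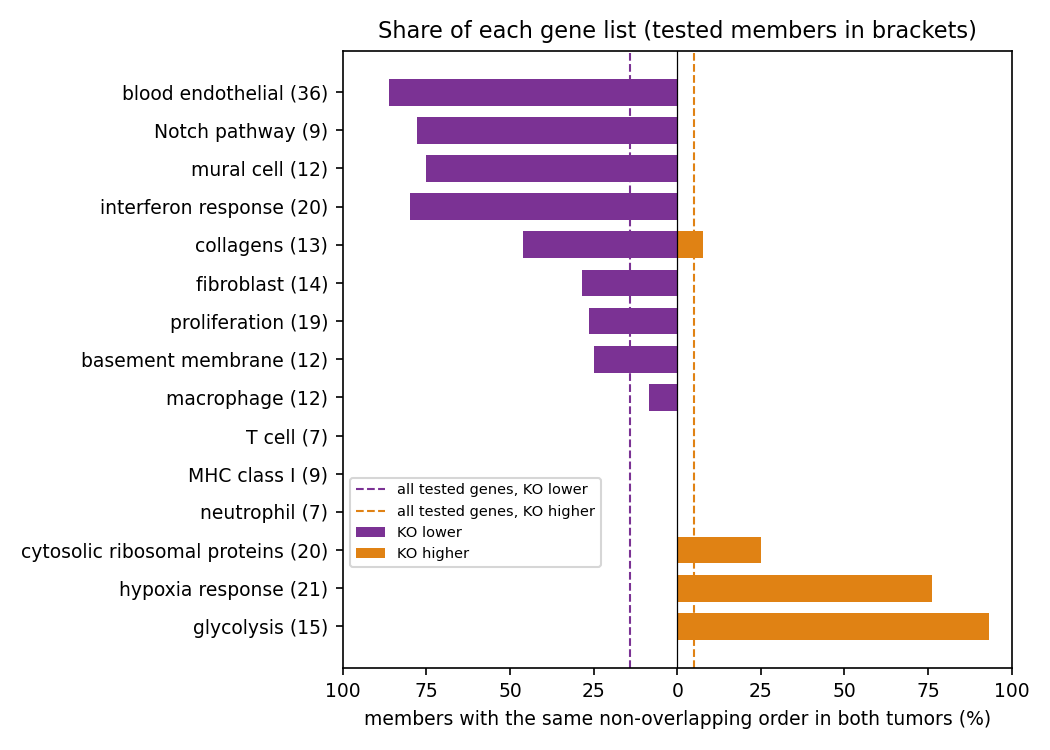
Share of each gene list (percent of tested members, number in brackets) with the same non-overlapping order in both tumors, to the left when lower in KO hosts and to the right when higher. Dashed lines mark the shares of all tested genes, 14.1% lower and 5.01% higher, and the vessel, interferon, hypoxia and glycolysis bars reach 75% or more.

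Interferon response genes were lower members in 16 of 20 cases (80%, against 14.1% of all genes), with a median host change of -0.65. This group, induced when type I or type II interferons are sensed, had a median of -1.05 in LLC and -0.26 in B16. Without LLC WT replicate 1, the pool with the most interferon RNA (2313 RPM summed over the list), the median host change was -0.42. *Irf7* (ENSMUSG00000025498), the regulator that amplifies type I interferon, had 88.7 and 150.1 RPM in LLC KO pools against 333 and 235 RPM in LLC WT pools, and 85.1 and 87.9 RPM in B16 KO pools against 99.8 and 147 RPM in B16 WT pools. *Usp18*, which removes ISG15 from proteins and dampens the response, had 14.8 and 21.2 RPM in LLC KO pools against 65.6 and 29.9 RPM in LLC WT pools, and 42.5 and 37.3 RPM in B16 KO pools against 59.1 and 56.6 RPM in B16 WT pools. *Stat2*, a subunit of the interferon-activated transcription factor, had 46.8 and 63.6 RPM in LLC KO pools against 141 and 92.6 RPM in LLC WT pools, and 53.3 and 59.4 RPM in B16 KO pools against 64.4 and 69.3 RPM in B16 WT pools, and *Oasl2*, an antiviral protein, changed by -1.12 in LLC and -0.25 in B16. The model of 4 group means called 8 of the 20 lower (against 14.9% of all genes), with adjusted p-values of 0.0215 for *Stat2*, 0.0216 for *Irf7*, 0.0293 for *Usp18* and 0.0193 for *Oasl2*. In B16 the distance was short, and 14 and 13 of the 16 kept their order under the 2 other scalings.

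Promoters of 2 interferon genes are shown because the list moved together and shares a known response element. The motif of 2 copies of GAAA with any 2 bases between them, read on both strands, is the core of the interferon-stimulated response element. It was found in 11 of the 16 interferon list genes with a promoter window in RefSeq (68.8%), against 3.85% of the 10512 tested genes with one. The list holds known interferon targets, so its share follows in part from how it was chosen. Over all members the motif was in 4.7% of the 1575 lower genes with a window and in 4.01% of the 474 higher ones. Each window runs from 250 bases before to 50 bases after the start. Capitals mark the matches, of which *Isg15* has 3 that overlap.
Isg15, GRCm38.p6 chr4:156200769-156201068, minus strand: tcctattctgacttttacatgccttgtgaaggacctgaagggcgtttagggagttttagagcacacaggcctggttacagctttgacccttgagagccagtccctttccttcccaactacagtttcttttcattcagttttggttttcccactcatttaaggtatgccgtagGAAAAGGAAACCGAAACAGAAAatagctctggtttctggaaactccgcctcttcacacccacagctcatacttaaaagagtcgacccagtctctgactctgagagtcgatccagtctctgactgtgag
Stat2, GRCm38.p6 chr10:128270248-128270547, plus strand: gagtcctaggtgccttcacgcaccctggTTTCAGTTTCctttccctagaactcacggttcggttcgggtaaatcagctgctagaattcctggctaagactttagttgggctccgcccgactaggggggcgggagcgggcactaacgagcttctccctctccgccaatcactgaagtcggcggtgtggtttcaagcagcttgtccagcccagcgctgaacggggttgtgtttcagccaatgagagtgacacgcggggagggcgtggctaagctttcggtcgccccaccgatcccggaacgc
*Isg15*, a ubiquitin-like protein and interferon target, had 35 and 47.9 RPM in LLC KO pools against 128 and 53.9 RPM in LLC WT pools, and 81.3 and 62.8 RPM in B16 KO pools against 88.6 and 99.3 RPM in B16 WT pools. A match describes the sequence only, and the window of *Irf7* had none.

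Of 19 proliferation genes 5 were lower members (26.3%, against 14.1% of all genes), and 13 were called lower for the average (against 14.9%), with a median host change of -0.36. *Birc5*, an inhibitor of apoptosis needed in mitosis, had 50.7 and 50.3 RPM in LLC KO pools against 110.0 and 80.2 RPM in LLC WT pools, and 163 and 127 RPM in B16 KO pools against 189 and 181 RPM in B16 WT pools. *Rrm2*, the regulated subunit of ribonucleotide reductase, had 54.5 and 47.6 RPM in LLC KO pools against 120 and 87.8 RPM in LLC WT pools, and 218 and 174 RPM in B16 KO pools against 242 and 226 RPM in B16 WT pools, and the cyclin gene *Ccna2* changed by -0.45 in LLC and -0.22 in B16. The median of the list was -0.62 in LLC and -0.11 in B16, and with the median of ratios factors 3 genes kept the shared order. With 1 pool left in a B16 group the count was 15 without B16 WT replicate 2 and 13 without B16 KO replicate 1.

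The leukocyte lists are short, and their counts of members are read against shares of 14.1% lower and 5.01% higher over all genes. Members numbered 0 of 7 for T cells, 0 of 7 for neutrophils, 0 of 8 for dendritic cells, 0 of 8 for mast cells and 0 of 5 for B and plasma cells. Among NK and cytotoxic genes 2 of 10 were lower members, *Klrd1* and *Klrk1*, both receptors of NK cells, and among macrophage genes 1 of 12, the Fc receptor gene *Fcgr1*. MHC class I genes had 0 members of 9. For the average of both tumors, 9 of 10 NK and cytotoxic, 4 of 7 T cell and 8 of 9 MHC class I genes were called lower, against 14.9% of all genes. Their median changes were -1.87 in LLC and -0.19 in B16 for NK and cytotoxic genes, -1.36 in LLC and 0.16 in B16 for T cell genes, and -0.92 in LLC and -0.04 in B16 for MHC class I genes. *Tap1*, the peptide transporter, had 36.8 and 42.5 RPM in LLC KO pools against 97.9 and 79.6 RPM in LLC WT pools, and 101 and 111 RPM in B16 KO pools against 100 and 116 RPM in B16 WT pools, so its B16 pools overlapped and its effects in the 2 tumors differed (-1.12, adjusted p = 0.0125). The summed macrophage genes reached 3655 and 4894 RPM in LLC KO against 4802 and 6290 RPM in LLC WT, and 2040 and 2399 RPM in B16 KO against 2330 and 2562 RPM in B16 WT.

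**Figure D4:**
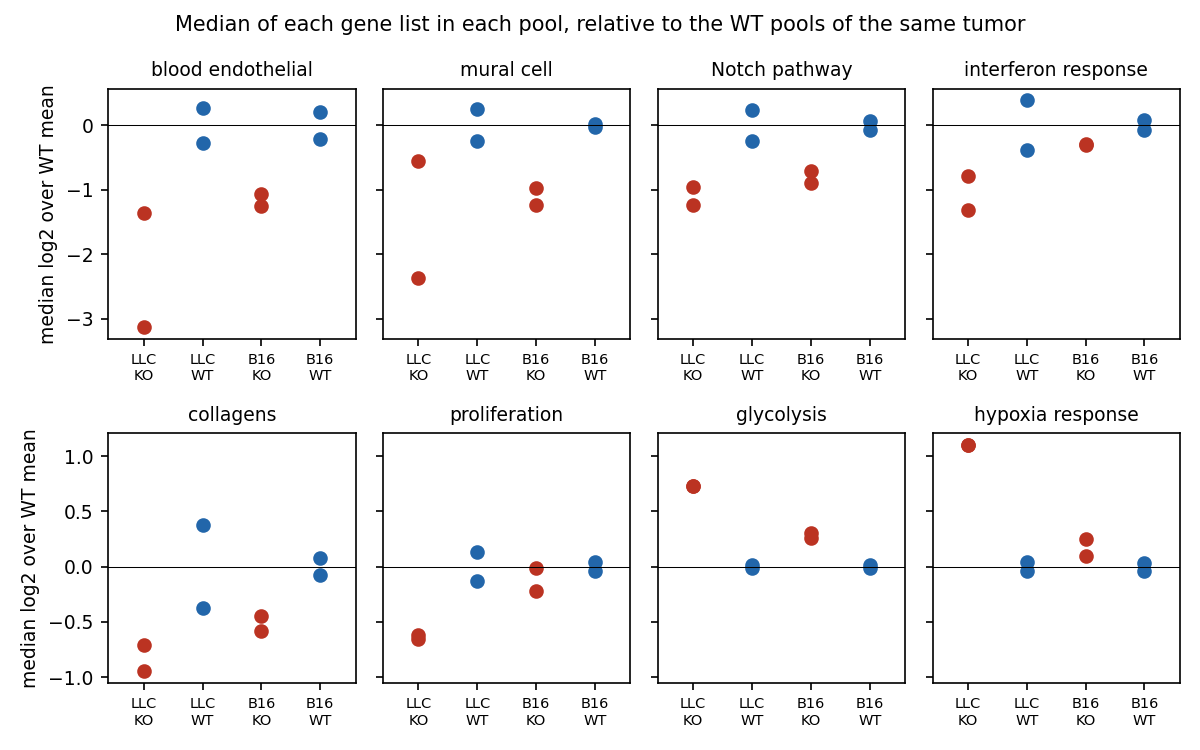
Median over the genes of 8 lists in each pool, as log2 over the WT mean for that tumor (KO red, WT blue). The endothelial and mural medians of LLC KO replicate 1 (-3.13 and -2.37) lie below those of replicate 2 (-1.35 and -0.55), while the KO points of glycolysis lie close together in each tumor.

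Glycolysis had the largest share of higher members of any list. Of 15 tested genes, 14 were higher members (93.3%, against 5.01% of all genes), from glucose phosphorylation to lactate export, with a median host change of 0.50, 0.74 in LLC and 0.26 in B16. The same 14 counted as higher under both other scalings, as they had to, since these factors raised every KO library against every WT library. The exception was *Pfkfb3*, which sets the level of an activator of phosphofructokinase, and it had 64.9 and 63.9 RPM in LLC KO pools against 72.5 and 72.9 RPM in LLC WT pools, and 56.1 and 66.6 RPM in B16 KO pools against 57.1 and 57.3 RPM in B16 WT pools.

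*Gapdh* (ENSMUSG00000057666, GRCm38 chr6:125161715-125166467, minus strand), often used as a reference gene, had 4438 and 4517 RPM in LLC KO pools against 2340.1 and 2492 RPM in LLC WT pools, and 10133 and 10786 RPM in B16 KO pools against 7545 and 7168 RPM in B16 WT pools. Its host change was 0.70 (95% confidence interval 0.41 to 0.99, adjusted p = 0.116 with tumor as covariate), and for the average the adjusted p was 0.00515. *Pgam1*, phosphoglycerate mutase, had 423 and 421 RPM in LLC KO pools against 259 and 297 RPM in LLC WT pools, and 454 and 519.8 RPM in B16 KO pools against 371 and 365 RPM in B16 WT pools. *Pfkl*, liver-type phosphofructokinase, had 352 and 362 RPM in LLC KO pools against 204 and 220.1 RPM in LLC WT pools, and 783 and 781 RPM in B16 KO pools against 629 and 612 RPM in B16 WT pools, and *Hk1*, hexokinase 1, had 215 and 226 RPM in LLC KO pools against 129 and 128 RPM in LLC WT pools, and 479 and 510.1 RPM in B16 KO pools against 422 and 402 RPM in B16 WT pools. The KO and WT pools of these genes were well apart in each tumor, and the effects were larger in LLC for *Hk1* (difference 0.51, adjusted p = 0.018) and *Pfkl* (0.42, adjusted p = 0.0321). *Eno1b* and *Pgk1-rs7*, also among the leading higher members, are near-identical copies of *Eno1* and *Pgk1*, so that reads may have been shared with them and their own levels are uncertain.

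The hypoxia list, targets of HIF other than glycolytic enzymes, held 16 higher members among 21 tested genes (76.2%, against 5.01% of all genes), and 20 of the 21 were called higher for the average (against 8.12%). Its median host change was 0.69, but 1.10 in LLC and 0.18 in B16. Effects in the 2 tumors were unequal for 16 of the genes (over all tested genes, LLC minus B16 was above 0 for 8.15% and below 0 for 7.05%). *Ddit4*, an inhibitor of mTORC1 signaling induced by stress, had 117 and 102 RPM in LLC KO pools against 66.1 and 59.7 RPM in LLC WT pools, and 171 and 177 RPM in B16 KO pools against 145 and 144 RPM in B16 WT pools. *Car9*, a carbonic anhydrase at the cell surface, had 7.9 and 8.55 RPM in LLC KO pools against 5.05 and 4.9 RPM in LLC WT pools, and 223 and 258 RPM in B16 KO pools against 201 and 208 RPM in B16 WT pools, and *Bhlhe40*, a transcriptional repressor, had 189.7 and 190 RPM in LLC KO pools against 90.8 and 85.6 RPM in LLC WT pools, and 468 and 437 RPM in B16 KO pools against 389 and 374 RPM in B16 WT pools. *Egln3*, an oxygen sensor that is itself a HIF target, had 485 and 488 RPM in LLC KO pools against 149.8 and 157 RPM in LLC WT pools, and 27.9 and 32.1 RPM in B16 KO pools against 20 and 26.8 RPM in B16 WT pools. For *Egln3* and *Bhlhe40* the difference between the tumors was 1.30 and 0.86 (adjusted p = 0.0095 and 0.00443), and for *Ddit4* it was 0.52 (adjusted p = 0.0315).

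**Figure D5:**
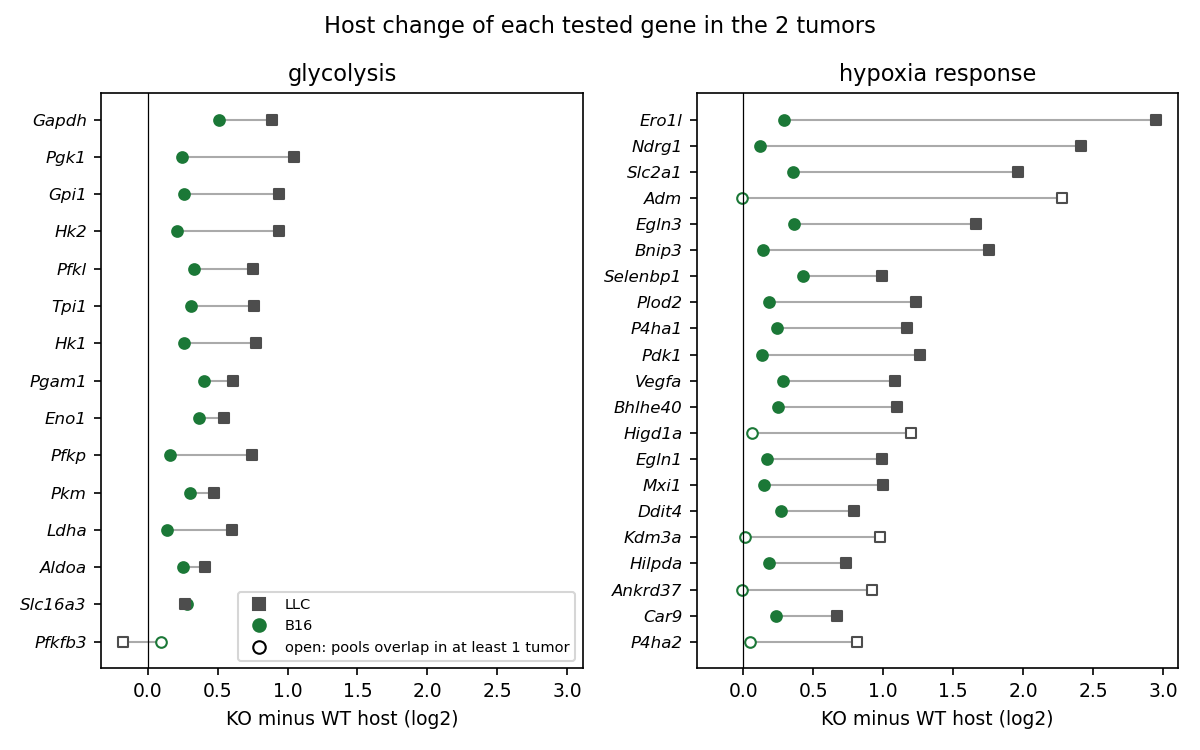
Host change (log2) of each tested glycolysis gene (left) and hypoxia gene (right), squares for LLC and circles for B16, open where pools overlap in at least 1 tumor. All LLC squares but that of *Pfkfb3* lie above 0, and 14 of 15 glycolysis genes and 16 of 21 hypoxia genes are filled.

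The promoters of 4 of these genes are shown for the HIF binding core. The 5-base motif ACGTG, read on both strands, was present in the windows of 14 of 17 hypoxia genes (82.4%) and 10 of 15 glycolysis genes (66.7%), against 28.8% of tested genes. Over all members it was in 35.2% of the 474 higher genes with a window and in 24.4% of the 1575 lower ones. The hypoxia list was chosen as HIF targets, and glycolysis genes are known to be induced through HIF-1, so both shares follow in part from the choice of lists. No other form of the core was searched. Capitals mark the match, which appears as CACGT where it lies on the other strand.
Ddit4, GRCm38.p6 chr10:59951721-59952020, minus strand: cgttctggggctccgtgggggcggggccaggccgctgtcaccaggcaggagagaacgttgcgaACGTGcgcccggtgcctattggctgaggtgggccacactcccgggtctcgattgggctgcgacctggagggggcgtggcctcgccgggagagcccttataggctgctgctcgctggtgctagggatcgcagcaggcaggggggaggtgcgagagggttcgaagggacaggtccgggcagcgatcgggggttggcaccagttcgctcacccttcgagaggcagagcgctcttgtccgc
Car9, GRCm38.p6 chr4:43506776-43507075, plus strand: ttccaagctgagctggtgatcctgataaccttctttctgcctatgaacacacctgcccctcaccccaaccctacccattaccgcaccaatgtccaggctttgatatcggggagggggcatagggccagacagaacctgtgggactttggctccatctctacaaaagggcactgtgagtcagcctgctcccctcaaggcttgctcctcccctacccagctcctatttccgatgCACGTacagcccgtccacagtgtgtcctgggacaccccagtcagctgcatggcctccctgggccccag
Egln3, GRCm38.p6 chr12:54203825-54204124, minus strand: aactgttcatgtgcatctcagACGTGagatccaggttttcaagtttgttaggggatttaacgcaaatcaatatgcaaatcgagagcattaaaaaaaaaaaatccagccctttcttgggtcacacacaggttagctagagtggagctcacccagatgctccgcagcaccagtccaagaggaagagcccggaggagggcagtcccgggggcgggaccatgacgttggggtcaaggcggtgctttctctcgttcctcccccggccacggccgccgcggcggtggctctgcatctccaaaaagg
Pgam1, GRCm38.p6 chr19:41911621-41911920, plus strand: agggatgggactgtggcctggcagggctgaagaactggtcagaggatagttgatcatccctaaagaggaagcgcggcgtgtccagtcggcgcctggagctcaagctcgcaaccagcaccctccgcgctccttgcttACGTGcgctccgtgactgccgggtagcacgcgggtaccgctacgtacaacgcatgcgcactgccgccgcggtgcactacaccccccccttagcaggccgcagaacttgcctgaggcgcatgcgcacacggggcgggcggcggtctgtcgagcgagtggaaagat
The short motif occurs often by its length, and *Pfkfb3*, the glycolysis gene without the shared order, also had it.

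*Hcar2*, *Cxcl2* and *Il1f9* led the higher members called for the average by the size of the smaller change. *Hcar2*, a receptor for ketone bodies and nicotinic acid on myeloid cells, had 83.1 and 31.2 RPM in LLC KO pools against 19.9 and 6.05 RPM in LLC WT pools, and 16.3 and 9.1 RPM in B16 KO pools against 4.6 and 5.35 RPM in B16 WT pools. *Cxcl2*, a chemokine that attracts neutrophils, had 204 and 83.4 RPM in LLC KO pools against 46.4 and 15.2 RPM in LLC WT pools, and 65 and 20.8 RPM in B16 KO pools against 13.7 and 19.6 RPM in B16 WT pools, and its closest KO and WT pools in B16 were 20.8 and 19.6 RPM. *Il1f9*, an interleukin 36 cytokine, was low, with 7.45 and 5.5 RPM in LLC KO pools against 4.1 and 1.6 RPM in LLC WT pools, and 1.95 and 1.15 RPM in B16 KO pools against 0.3 and 0.6 RPM in B16 WT pools. These 3 were the members at least 2-fold higher in both tumors, and for the average their adjusted p-values were 0.0291, 0.0402 and 0.027. *Ccl3*, a macrophage chemokine, changed by 1.54 in LLC and 0.85 in B16, and *Mmp12*, the macrophage elastase, by 1.27 in LLC and 0.65 in B16.

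*Fstl3*, a secreted inhibitor of activins, had 13.3 and 13.7 RPM in LLC KO pools against 4.05 and 4.5 RPM in LLC WT pools, and 5.5 and 6.5 RPM in B16 KO pools against 3.35 and 4.65 RPM in B16 WT pools. *Mfsd9*, *Pcdhac2*, *Celf4*, *Nyap1*, *Cbln3* and *Rnf32* completed the 15, with LLC changes between 0.59 for *Celf4* and 1.82 for *Cbln3* and B16 changes between 0.46 for *Rnf32* and 0.72 for *Mfsd9*. *Fstl3*, *Nyap1*, *Cbln3* and *Pgk1-rs7* had larger effects in LLC (differences of 1.01 to 1.32, adjusted p between 0.0374 and 0.047). Of the 20 cytosolic ribosomal protein genes, 5 were higher members (25%, against 5.01% of all genes), with *Rpl3* at 0.37 in LLC and 0.17 in B16, and 9 were under each other scaling. The list median was 0.35 in LLC and -0.01 in B16. Without overlap, 7 of the genes were lower and 5 higher in B16, and 0 were lower and 15 higher in LLC. *Rpl5* and *Rps3* were members by margins of only 0.0082 and 0.0087 on the log2 scale.

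Among the 10 VEGF, angiopoietin and platelet growth factor ligands tested, 2 were higher and 3 were lower members (against 5.01% higher and 14.1% lower over all genes). *Vegfa*, the main endothelial growth factor, had 307 and 304 RPM in LLC KO pools against 178 and 116 RPM in LLC WT pools, and 396 and 433 RPM in B16 KO pools against 333 and 346 RPM in B16 WT pools, and *Pgf*, placental growth factor, had 29.5 and 40.6 RPM in LLC KO pools against 4.6 and 5.2 RPM in LLC WT pools, and 19.3 and 24.8 RPM in B16 KO pools against 17.1 and 17 RPM in B16 WT pools. For *Vegfa* an exact two-sided permutation test over pools within tumors gave p = 0.0556, the smallest that the 36 arrangements allow (0.167 adjusted over 6 genes). Every member gets this p from the rule that chose it, so it adds no evidence. The effect on *Pgf* was larger in LLC (difference 2.35, adjusted p = 0.00418). In contrast *Pdgfb*, a ligand that endothelial cells use to recruit pericytes, had 2.65 and 6.9 RPM in LLC KO pools against 17.7 and 13 RPM in LLC WT pools, and 5.55 and 4.75 RPM in B16 KO pools against 12.3 and 10.2 RPM in B16 WT pools, and *Angptl4*, a lipase inhibitor that is also induced by hypoxia, had 85.2 and 102 RPM in LLC KO pools against 158 and 154 RPM in LLC WT pools, and 12.1 and 15.9 RPM in B16 KO pools against 17.6 and 22.5 RPM in B16 WT pools. *Angpt2*, a Tie2 ligand stored in endothelial cells, was the other lower member at -1.02 in LLC and -0.61 in B16, and under each other scaling 2 of these 3 genes were lower. *Fgf2* overlapped in both tumors (-0.01 in LLC and -0.29 in B16, exact permutation p = 0.5).

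The chemerin system had 1 member, a lower one, among 4 tested genes (against 14.1% of all genes). *Rarres2*, which encodes chemerin, had 52.3 and 53.2 RPM in LLC KO pools against 102 and 98.3 RPM in LLC WT pools, and 19.6 and 21.7 RPM in B16 KO pools against 22.4 and 46.2 RPM in B16 WT pools. Its host change was -0.78 (95% confidence interval -1.22 to -0.33), with an adjusted p of 0.116 with tumor as covariate and 0.0291 for the average. The exact permutation p of 0.0556 for *Rarres2* follows from its membership and adds no evidence. In B16 the nearest KO and WT pools differed little, and under both other scalings they overlapped. *Ccrl2* itself had 11.5 and 5.15 RPM in LLC KO pools against 9.4 and 5.25 RPM in LLC WT pools, and 3.55 and 3.1 RPM in B16 KO pools against 4.25 and 3.8 RPM in B16 WT pools, with overlapping pools in LLC (exact permutation p = 0.778). Since the grafted cells carry the gene, this level does not check the host genotype. Pools of the receptor genes *Cmklr1* and *Gpr1* overlapped in at least 1 tumor, with exact permutation p-values of 0.167 and 0.5.

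The leading members were chosen among genes called for the average, so how many of them were called is no result. For 70 of the named genes the average was fitted again with each library left out in turn, which leaves 1 pool in a group. The 66 of them called with all libraries kept their sign each time, but many did not keep the call. Genes that kept the call without each library in turn included *Cd93*, *Pdgfrb*, *Acta2*, *Notch4*, *Mest*, *Gapdh*, *Pgam1* and *Ddit4*. Genes that lost it without at least 1 library included *Cdh5*, *Pecam1*, *Plvap*, *Tie1*, *Emcn*, *Sox18*, *Hcar2*, *Cxcl2*, *Irf7*, *Stat2* and *Rarres2*. The adjusted p-values of these genes for the average therefore rest on the full set of pools. Adipocyte, erythroid and nerve genes, which mark tissue attached to a tumor, had 0 members of 8, 5 and 8 tested. Over all genes the shares were 14.1% lower and 5.01% higher. Skeletal muscle had 1 lower member of 4 tested, *Des*, and summed to 945 RPM in B16 WT replicate 1 against 4.8 to 12.5 RPM in the others. Whether this tissue contributed to the shared changes was not tested beyond leaving the library out, which gave 32 lower members of the endothelial list and 9 of the mural list. Without LLC KO replicate 1 these counts were 31 and 9, although a group left with 1 pool meets the rule more easily.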

How the data were processed

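RNA of 8 libraries was sequenced, 2 for each combination of tumor (LLC, B16) and host (*Ccrl2* KO, WT), each a pool of tumors. Paired reads were trimmed by the authors (Trimmomatic) and mapped with STAR on GRCm38.p4, also named mm10. HTSeq then gave a count per gene, with versions not given in the sources used here. What the authors deposited is a score, each count scaled to a library of 20 M reads and rounded, and division by 20 gave RPM. All columns total about 20 M. LLC KO replicate 2 left out 12% of the whole numbers up to 200, which puts its depth near 17.6 M reads on genes and a level of 3 reads at 0.17 RPM, for counting error only. The other columns show no such gaps, and whole reads were not recovered, so tests for counts could not be used.

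Genes reaching 1 RPM in 2 or more libraries were fitted with limma 3.58.1 (R 4.3.3) on log2(RPM + 0.5), with variances that follow a trend on the mean. Changes of low genes are understated on this scale. One model had tumor and host as terms, and another had the 4 group means and gave the change in each tumor, their average and their difference. The call was an adjusted p (Benjamini-Hochberg) under 0.05. The fits were tested on simulated data. Levels of 6 genes were compared with exact permutation tests.

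Members and the 32 gene lists were chosen with earlier results of these data known. Genes named are up to 4 of each list with the smallest adjusted p of the first model, and *Ccrl2*, *Rarres2*, *Cmklr1*, *Gpr1*, *Vegfa* and *Fgf2*. The rule's first item, the 15 largest shared changes in each direction among genes called by the first model, gave 0 names. The same ranking among members called for the average was used in its place after the values had been seen. Genes named outside these rules, such as *Flt1*, *Isg15* and *Lama4*, were also chosen after seeing them. Positions are from GENCODE for GRCm38, which held 99.8% of tested genes, and promoters from RefSeq (GRCm38.p6). Alternatives were other pseudocounts (0.05 and 2 RPM), other filters (none, or 5 RPM), 2 other scalings, robust moderation, a replicate block, the average of 4 group means, each tumor alone, and libraries or sex chromosomes left out.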

Additional observations from a re-analysis of the deposited data

Results flagged for a closer look

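Unequal host effects in the 2 tumors were called for 2236 of the 14706 tested genes (LLC minus B16 above 0 in 8.15%, below 0 in 7.05%). Of the 104 genes named in the text, 20 passed this test (limma, change in LLC minus change in B16, log2, adjusted over all tested genes). Most were named for their shared order, so that the 13 with it say nothing on how often directions agree. Among these, those that were higher in KO hosts were *Pgf* (2.35, adjusted p = 0.00418), *Cbln3* (1.32, 0.047), *Egln3* (1.30, 0.0095), *Pgk1-rs7* (1.08, 0.0416), *Pgk1* (0.80, 0.0115), *Nyap1* (1.04, 0.0391), *Fstl3* (1.01, 0.0374), *Bhlhe40* (0.86, 0.00443), *Ddit4* (0.52, 0.0315), *Hk1* (0.51, 0.018) and *Pfkl* (0.42, 0.0321). Those that were lower were *Col1a1* (-1.16, adjusted p = 0.0453) and *Hes1* (-0.78, 0.0366). In each of the 13 the change was larger in LLC. The 7 without the shared order were *Flt1* (1.65, adjusted p = 0.0327), *Tap1* (-1.12, 0.0125), *Lck* (-1.68, 0.0272), *Apold1* (-1.14, 0.00328), *Ecscr* (-1.70, 0.0443), *Eng* (-0.93, 0.00684) and *Lars2* (-4.35, 0.00315). The count of genes with unequal effects was 318 to 951 without any 1 of the LLC KO and B16 libraries, lowest without B16 WT replicate 1, 3616 without LLC WT replicate 1, and 0 without B16 WT replicate 1 and LLC KO replicate 1 together. The days given for the grafts, the Y-linked RNA of the LLC KO pools and the high level of *Lars2* in the LLC WT pools (1194 and 1362 RPM, against 70.8 to 163 RPM in the other 6 libraries) go with tumor or group, and their part in these differences was not tested. No group had the 4 samples needed to test for outlying pools.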

How the results depend on the processing

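With 2 pools a group, the rule of non-overlapping pools and the adjusted p-values rest on few samples, and small changes near the edge of the rule depend on scaling. With trimmed mean of M values factors 1310 members were lower and 1411 higher, and with median of ratios factors 1302 and 1398. The median glycolysis change was then 0.58 under each, and 3 proliferation genes kept the shared order with the median of ratios factors. The count called with tumor as covariate was 0, against 3386 for the average of 4 group means, 3292 in LLC alone, 1 with the filter of 5 RPM and 1 without genes on chromosomes X and Y. That filter tests fewer genes and left 4 Notch genes with the shared order. With no filter the 4 group means called 1655 genes for the average and 795 for the difference between tumors. In B16 alone the list medians were -0.26 for interferon, 0.18 for hypoxia, 0.26 for glycolysis and -0.11 for proliferation genes. In LLC alone they were -1.25 for Notch, -1.05 for interferon, -0.83 for collagens, 1.10 for hypoxia, 0.74 for glycolysis and -0.62 for proliferation genes. Without B16 WT replicate 1 and LLC KO replicate 1 together, 3322 members were lower and 1306 higher, and the average and the difference had 1 and 0 called genes, since 2 groups then held 1 pool each. Leaving out 1 library in turn gave 0 to 4 genes called with tumor as covariate, 2301 to 3222 lower and 844 to 1462 higher members, 811 to 4028 genes called for the average, 318 to 3616 for the difference, 5 to 15 proliferation genes with the shared order, and medians of 0.57 to 0.79 for hypoxia and 0.44 to 0.56 for glycolysis. Member counts grow there by construction, as a group with 1 pool meets the rule more easily. The cause of the other shifts was not tested. Among 70 named genes, signs turned for *Ccrl2*, *Fgf2* and *Gpr1*, none of them called with all libraries. *Gpr1* turned only for the average, at -0.38 with all libraries and 0.042 without LLC WT replicate 2. *Ccrl2*, at -0.06 with all libraries, was at 0.0111 with trimmed mean of M values factors, 0.00779 with median of ratios factors and 0.12 in LLC alone, and between -0.31 and 0.12 with 1 library left out. *Fgf2*, at -0.15, was between -0.28 and 0.000446 with 1 library left out. Replicate numbers shared by the groups were not treated as pairs, and the deviations of equal numbers correlated at -0.03 in LLC and 0.06 in B16. Between groups of different tumors the correlations ran from -0.02 to 0.31, the highest for LLC WT with B16 KO. With 2 pools a group these values cannot show that the pools were unpaired. A replicate block within tumors called 0 genes (smallest adjusted p = 0.246) with 2696 at an unadjusted p under 0.05.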

Other observations

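Of the 67 named genes at least 2-fold lower in both tumors, 36 stood on none of the lists, and they were looked up after their values had been seen. Values of 5 follow. *Epas1*, the HIF-2 alpha subunit that is abundant in endothelium, had 2.45 and 9.6 RPM in LLC KO pools against 31.8 and 19.8 RPM in LLC WT pools, and 8.5 and 8.25 RPM in B16 KO pools against 21.4 and 15.4 RPM in B16 WT pools. *Esm1*, a proteoglycan of endothelial tip cells, changed by -2.18 in LLC and -1.31 in B16 (log2), *Gja5*, the arterial connexin 40, by -1.30 and -1.12, and *Igfbp7*, a secreted vascular protein, by -1.83 and -1.01. *F11r*, a junctional adhesion molecule, changed by -1.54 and -1.15.

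*Sfrp2*, a secreted modulator of WNT signaling, had 26.6 and 26.8 RPM in LLC KO pools against 85 and 218 RPM in LLC WT pools, and 3.25 and 2.25 RPM in B16 KO pools against 6.85 and 8.1 RPM in B16 WT pools. *Inhbb*, an activin subunit, had 13.7 and 17.3 RPM in LLC KO pools against 41 and 39.8 RPM in LLC WT pools, and 1.2 and 1.65 RPM in B16 KO pools against 5.05 and 2.55 RPM in B16 WT pools. *Fstl3*, an inhibitor of activins, had the opposite order in both tumors. The imprinted cell cycle inhibitor gene *Cdkn1c*, with changes of -1.70 in LLC and -1.02 in B16, was lower together with *Mest*, another imprinted gene. For these 4 genes the model of 4 group means gave adjusted p-values of 0.00726 for *Sfrp2*, 0.00897 for *Inhbb*, 0.00829 for *Cdkn1c* and 0.00516 for *Mest*.

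In the list of ATF4 and ER stress genes, 2 of 15 were higher members (13.3%, against 5.01% of all genes). *Sdf2l1*, an ER chaperone cofactor, changed by 0.63 in LLC and 0.16 in B16, and *Xbp1*, a transcription factor of the unfolded protein response, by 0.11 and 0.14.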
